A study of Mus musculus with 12 samples.

Results

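Fibroblasts grown from mouse embryos with a kinase-dead form of IRAK4 were compared with wild-type fibroblasts before any cytokine was added. Levels and differences come from 4 of the 12 arrays of the series, 2 per genotype, chosen by their labels as cells kept for 4 h without stimulation, while standard errors and p-values come from one fit to all 12 arrays. IRAK4 is the protein kinase that the adaptor MyD88 recruits to the activated interleukin-1 (IL-1) receptor and to most Toll-like receptors, and kinase dead means that the protein is made but cannot phosphorylate its substrates. Signals from these receptors pass through TRAF6 to the transcription factors NF-kB and AP-1, which switch on chemokines, cytokines and matrix proteases. Fibroblasts also keep a memory of their place in the body in the Hox genes and other patterning transcription factors, so cultures from different regions of an embryo differ in these genes without any treatment.

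All cells grew in Dulbecco's modified Eagle's medium with foetal calf serum, and RNA was amplified, labelled with biotin and hybridised to oligonucleotide arrays. The other 8 arrays held cells of both genotypes given 1 ng/ml IL-1b for 1 h or 4 h, 2 arrays for each genotype and time. The 2 samples of a group are described as biological replicates, but no embryos, cultures, passage or strain are named, so the p-values reflect only how far these samples vary. The title of wild-type replicate 1 gives no genotype. It was taken as wild type because the design states 6 arrays per genotype. The Irak4 transcript was not analysed here.

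The genotypes also differed in the sex of the cells. Xist, the RNA made from the inactive X chromosome of female cells, gave signals of 2630 to 3123 on the 6 wild-type arrays and 2.2 to 22.6 on the 6 kinase-dead arrays at its brightest probe set. The Y-linked gene Eif2s3y gave 2.2 to 10.6 on the wild-type arrays and 1452 to 1609 on the kinase-dead arrays. The wild-type array without a genotype in its title had 2655 for Xist and 2.2 for Eif2s3y, on the side of the other wild-type arrays. Sex and genotype therefore cannot be told apart in any result here. The same holds for genotype and the embryo, the region of the embryo or the culture the cells came from, the Hox and limb-factor differences included. The main tests were limited to genes on the 19 autosomes. The ratio of 3' to 5' actin probe signals, which rises with RNA breakdown and short amplification products, was 2.68 and 2.14 on the wild-type arrays and 2.86 and 2.83 on the kinase-dead arrays, against 2.15 to 2.58 on the 8 stimulated arrays. The same ratio for Gapdh overlapped between genotypes, at 1.63 and 1.23 on the wild-type arrays and 1.58 and 1.48 on the kinase-dead arrays. On the 8 stimulated arrays it was 1.29 to 1.68. The part of these ratios in the results was not tested. Log2 signals over all probe sets correlated at 0.971 between the wild-type arrays and at 0.973 between the kinase-dead arrays.

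Signals are the authors' MAS5 values, on a linear scale with a trimmed mean of 150 per array. Each difference below is the kinase-dead minus the wild-type mean of log2(signal + 8), with its standard error (SE) from limma, and 8 added units shrink the difference of dim genes. A gene is called when its limma p, adjusted by Benjamini-Hochberg over the 11998 autosomal genes tested, is under 0.05. Of these genes 1704 (14.2%) were called, 875 (7.29%) higher and 829 (6.91%) lower in kinase-dead cells, and 501 (4.18%) of all genes were called with at least a 2-fold difference. An unadjusted p under 0.05 was reached by 26.9%. The counts on gene lists below stand beside these shares of all genes. The arrays of the 2 genotypes separated completely for 52.1% of all genes tested, so lack of overlap alone marks no gene here or in the paragraphs below. For genes named as the largest changes it was a condition of being named. Leaving out kinase-dead replicate 1 gave 1006 called genes and leaving out replicate 2 gave 1119, while a fit on the 4 unstimulated arrays alone gave 1025. Of the 1704 genes, 711 kept their call in each of the 12 fits that left out 1 array, and all genes named below as higher or lower did so unless stated. The median difference over all genes was -0.02. Each gene was read at its brightest probe set. Of 977 called genes with another tested probe set, 363 had another one called in the same direction and 13 in the opposite direction. Among the called genes described here 62 had another, 44 had one called in the same direction, 0 in the opposite direction, and 18 had no other one called, Hoxa3, Hoxb4, Rspo3, Tnfsf11, Adamts10, Il1rap and Bmpr1b among them.

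The cells carried the collagen transcripts that define fibroblasts in both genotypes. Col1a1, Col1a2 and Col3a1, the chains of the main fibroblast collagens, gave signals of 5666 and 4601, 5861 and 5309 and 5674 and 5201 on the wild-type arrays. On the kinase-dead arrays the same probe sets gave 5425 and 5486, 6017 and 5755 and 5667 and 5569. None of the 3 was called, with differences of 0.10 ± 0.10, 0.08 ± 0.08 and 0.05 ± 0.08. Prrx1, a transcription factor of limb and craniofacial mesenchyme, gave 3221 and 2980.3 in wild-type cells and 3036 and 3045 in kinase-dead cells and was not called either (-0.03 ± 0.07, adjusted p = 0.864), but 2 of its 4 other probe sets were called lower. Of 16 fibroblast markers tested, 6 were called lower and 0 higher in limma (1 higher at an unadjusted p under 0.05, and 1 called higher without wild-type replicate 1), with a median of -0.18, and their summed signal was 38895 and 35234 in wild-type cells and 34470 and 34820 in kinase-dead cells. The 6 lower genes included Lum (-2.32 ± 0.19, adjusted p = 2.61e-07), a proteoglycan gene described with the matrix genes, and Fbln2, which encodes the matrix protein fibulin 2 (-0.99 ± 0.11, adjusted p = 7.91e-06). Among them were also Pdgfra, the receptor for platelet-derived growth factor on mesenchymal cells, and S100a4, a calcium-binding protein of motile fibroblasts. Pdgfra gave 586 and 581 in wild-type cells and 146 and 118 in kinase-dead cells, 4.43-fold lower by mean signal (log2 difference -2.09 ± 0.13, adjusted p = 1.47e-08), and 2 other Pdgfra probe sets were called lower too. S100a4 gave 3088 and 2926 in wild-type cells and 1460.1 and 1609 in kinase-dead cells (log2 difference -0.97 ± 0.09, adjusted p = 6.98e-07). For both genes the 2 kinase-dead arrays lay below both wild-type arrays.

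The largest single difference was in Hoxd13, the last gene of the HoxD cluster, which is used in the developing hand and foot and in the genital region. Its signal was 1113 and 1216 in wild-type cells and 35.4 and 17.7 in kinase-dead cells, 43.9-fold lower by mean signal (log2 difference -5.13 ± 0.20, adjusted p = 5.02e-11). Hoxd10, of the same cluster and a gene of the distal limb and lumbar spine, gave 746 and 757 in wild-type cells and 194 and 168 in kinase-dead cells (log2 difference -2.01 ± 0.12, adjusted p = 9.15e-09). Hoxd9 and Hoxa10, which pattern the limb and lower trunk, were lower by similar amounts (-1.49 ± 0.14, adjusted p = 1.05e-06, and -1.54 ± 0.14, adjusted p = 7.51e-07). The kinase-dead arrays lay below the wild-type arrays in all 4 genes.

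Hox genes from the other end of the clusters, used in the hindbrain, neck and upper trunk, differed the opposite way. Hoxb5 gave 29.7 and 19.2 in wild-type cells and 165 and 153 in kinase-dead cells (log2 difference 2.38 ± 0.23, adjusted p = 1.14e-06). Its antisense neighbour Hoxb5os was called higher as well (3.07 ± 0.20, adjusted p = 1.27e-08). The wild-type signals of Hoxb5os, 21.3 and 21.7, lay under 25.5, the median of all values, against 249 and 229 in kinase-dead cells. The sources used here do not say whether the probes tell the strands apart. Hoxb3 gave 383 and 335 in wild-type cells and 1161 and 1109 in kinase-dead cells, 3.16-fold higher by mean signal (log2 difference 1.64 ± 0.12, adjusted p = 6.03e-08). Hoxa3 gave 244 and 232 in wild-type cells and 838 and 675 in kinase-dead cells (log2 difference 1.63 ± 0.13, adjusted p = 1.76e-07). Hoxb4, Hoxa5 and Hoxc4 were higher, at 1.43 ± 0.25, 0.87 ± 0.18 and 0.70 ± 0.12 on the log2 scale. Among all 28 Hox genes tested, 8 were called higher, 6 lower and 14 not, with a median of 0.39.

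Arranged by number, the tested Hox genes divided as follows, in groups formed after their values were seen and given without a test. Of 11 genes numbered 1 to 5, 7 were called higher and 0 lower, with a median of 1.01. Of 5 genes numbered 6 to 8, 0 were called higher and 1, Hoxd8, lower (-0.84 ± 0.10, adjusted p = 1.37e-05), with a median of 0.33. Of 12 genes numbered 9 to 13, 1 was called higher and 5 lower, with a median of -0.90. The 1 higher gene of that last group was Hoxb9 (0.52 ± 0.13, adjusted p = 0.0113), whose adjusted p was 0.0548 without wild-type replicate 1, 0.146 without kinase-dead replicate 1 and 0.0649 with the unstimulated arrays alone. In the contrast of the 8 stimulated arrays, which enter the present one only through the shared variance, the 3 groups held 10, 3 and 2 genes called higher and 0, 1 and 5 called lower.

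**Figure D1:**
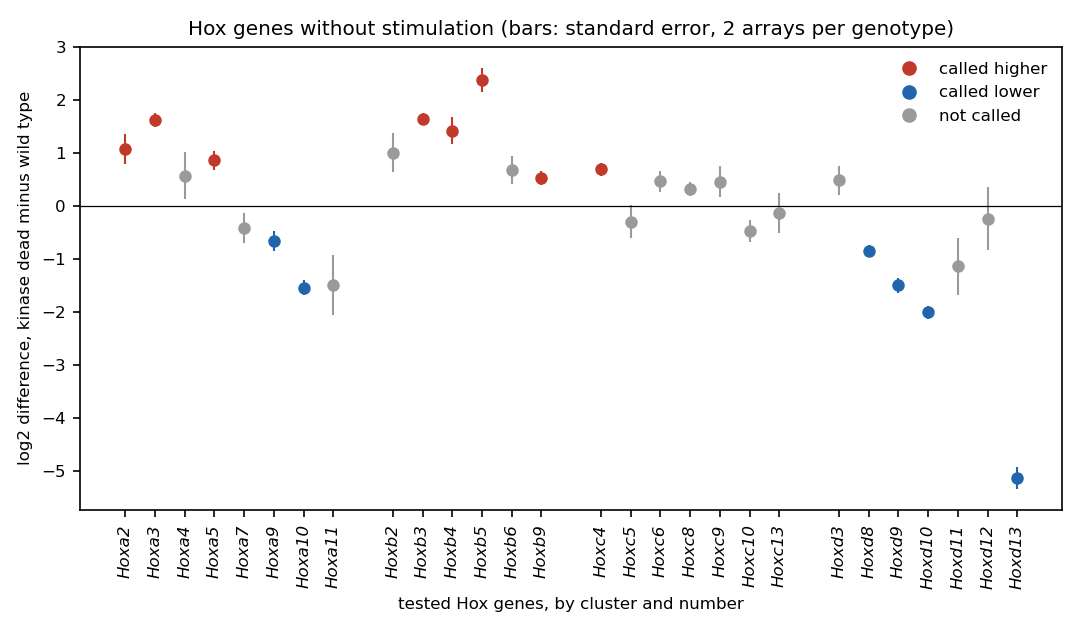
Log2 difference between unstimulated kinase-dead and wild-type fibroblasts (y axis, kinase dead minus wild type) for the 28 tested Hox genes, ordered along x by cluster and number, with standard errors as bars. Genes numbered 1 to 5 were not called lower in any cluster, and Hoxd13 was lowest at -5.13.

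Transcription factors of position outside the Hox clusters also differed in both directions. Of 55 tested, 11 were called higher and 10 lower, against 7.29% and 6.91% of all genes, and the median was -0.07. Foxd1, a forkhead factor of kidney stroma and the developing retina, gave 98.8 and 90.7 in wild-type cells and 654 and 696 in kinase-dead cells, 7.13-fold higher by mean signal (log2 difference 2.73 ± 0.18, adjusted p = 2.51e-08). Wt1, the Wilms tumour factor of kidney, gonad and mesothelium, gave 24.4 and 20.5 in wild-type cells and 131 and 119 in kinase-dead cells (log2 difference 2.13 ± 0.23, adjusted p = 6.07e-06). The wild-type signals of Wt1 lay under 25.5, the median of all values that served as the filter on dim probe sets. Foxp2, a forkhead factor of brain and lung, gave 234 and 292 in wild-type cells and 974 and 942 in kinase-dead cells (log2 difference 1.84 ± 0.14, adjusted p = 8.51e-08). Zic1 and Pax3, factors of the dorsal neural tube and somite, were higher, at 1.49 ± 0.13 and 2.01 ± 0.38. Pax3 gave 14 and 6.1 in wild-type cells, under 25.5 like Wt1, and 58.9 and 67.2 in kinase-dead cells. The Hox cofactor genes Meis1 and Meis2, which mark the proximal limb, were higher, at 1.77 ± 0.24 and 1.13 ± 0.12. In each of these 7 genes both kinase-dead arrays lay above both wild-type arrays.

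Among the 10 that were lower were 3 factors of the early limb. Tbx5, the T-box factor that starts the forelimb and heart, gave 177 and 178 in wild-type cells and 42.4 and 14.9 in kinase-dead cells (log2 difference -2.45 ± 0.40, adjusted p = 0.000365). Lhx9, a LIM homeobox factor of limb bud and gonad, gave 189.7 and 287 in wild-type cells and 57.5 and 23.1 in kinase-dead cells (log2 difference -2.42 ± 0.27, adjusted p = 7.73e-06). Shox2, a homeobox factor of the proximal limb skeleton and the cardiac pacemaker, gave 242 and 256 in wild-type cells and 66.7 and 33.7 in kinase-dead cells (log2 difference -2.20 ± 0.24, adjusted p = 6.74e-06). The 2 kinase-dead arrays lay apart in these genes, with replicate 2 the lower each time, but both stayed below the wild-type arrays. Averaged over 1 h and 4 h of IL-1b, the same 3 genes were again called lower, at -1.53, -1.65 and -2.19. At 1 h the differences were -2.08, -2.31 and -2.44, and at 4 h they were -0.97, -0.99 and -1.94. Tbx5 was not called at 4 h (limma adjusted p = 0.0931).

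Genes of retinoic acid and Wnt signalling, both used to pattern limb and trunk, were part of the difference. Of the tested members 37.5% and 32.4% were called, against 14.2% of all genes. Of 16 retinoic acid genes tested, 1 was called higher and 5 lower, with a median of -0.17; the higher count was 2 without wild-type replicate 1 and 0 without wild-type replicate 2 or kinase-dead replicate 1. Crabp1 and Crabp2 encode the cellular retinoic acid binding proteins. Crabp1 gave 182 and 210.2 in wild-type cells and 46 and 33 in kinase-dead cells (log2 difference -2.11 ± 0.23, adjusted p = 5.72e-06), and Crabp2 gave 570.0 and 497 in wild-type cells and 159 and 177 in kinase-dead cells (log2 difference -1.62 ± 0.13, adjusted p = 1.15e-07). Of 37 Wnt genes, 7 were called higher and 5 lower, with a median of -0.02; without kinase-dead replicate 1 there were 4 higher, and without kinase-dead replicate 2 there were 3 lower. Sfrp2, a secreted Wnt modulator, gave 187 and 194 in wild-type cells and 27.1 and 19.3 in kinase-dead cells (log2 difference -2.68 ± 0.20, adjusted p = 8.51e-08). Rspo3 and Rspo2, secreted enhancers of Wnt signalling, went the other way, with 313 and 313 in wild-type cells and 1076 and 949 in kinase-dead cells for Rspo3 (log2 difference 1.67 ± 0.12, adjusted p = 6.88e-08) and a difference of 1.27 ± 0.11 for Rspo2.

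Chemokines, the secreted attractants of leukocytes, were more often called lower than higher before any IL-1b was given. Of 19 tested, 7 were called lower and 2 higher, against 6.91% and 7.29% of all genes, and the median was -0.39; the higher count was 1 when wild-type replicate 2 or either kinase-dead array was left out. Cxcl5, a neutrophil attractant, gave 105 and 136 in wild-type cells and 0.8 and 10.2 in kinase-dead cells (log2 difference -3.33 ± 0.25, adjusted p = 8.23e-08). Ppbp, the precursor of another neutrophil-attracting chemokine, gave 128 and 132 in wild-type cells and 5.3 and 2.2 in kinase-dead cells (log2 difference -3.56 ± 0.31, adjusted p = 4.66e-07). Cxcl14, a chemokine made by resting epithelia and fibroblasts, gave 808 and 633 in wild-type cells and 45.1 and 95.7 in kinase-dead cells, 10.2-fold lower by mean signal (log2 difference -3.28 ± 0.22, adjusted p = 3e-08). Ppbp was not on the list of 19. Cxcl15, a neutrophil attractant of the lung and the seventh chemokine called lower, gave 146 and 134 in wild-type cells and 33.5 and 41.6 in kinase-dead cells (log2 difference -1.71 ± 0.24, adjusted p = 8.55e-05). Every wild-type signal of the 4 genes exceeded every kinase-dead one, and the kinase-dead signals of Cxcl5 and Ppbp lay under 25.5.

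The monocyte attractants Ccl2 and Ccl7 and the neutrophil attractant Cxcl1 were lower by less. Ccl2 gave 121 and 202 in wild-type cells and 60.6 and 53 in kinase-dead cells (log2 difference -1.35 ± 0.17, adjusted p = 2.24e-05), and Ccl7 gave 70.0 and 82.9 in wild-type cells and 20.5 and 14.9 in kinase-dead cells (log2 difference -1.72 ± 0.16, adjusted p = 7.51e-07). Cxcl1 gave 68.5 and 41 in wild-type cells and 22.8 and 11.7 in kinase-dead cells (log2 difference -1.31 ± 0.25, adjusted p = 0.00139). Ccl20, which attracts lymphocytes and dendritic cells, was called lower (-1.42 ± 0.24, adjusted p = 0.00044), but its adjusted p was 0.0678 with the unstimulated arrays alone. Cxcl2, a strong IL-1 target in many cells, was dim on all 4 arrays, with 2.7 and 4.7 in wild-type cells and 1.1 and 0.7 in kinase-dead cells, and was not called (-0.39 ± 0.16, adjusted p = 0.129). With 1 unit added in place of 8 its difference was -1.28 (adjusted p = 0.00127), at signals far below the filter. Of the 2 higher genes, Cxcl12, the constitutive stromal chemokine that retains blood progenitors, gave 1767 and 1761 in wild-type cells and 4753 and 4732 in kinase-dead cells and was 2.69-fold higher by mean signal (log2 difference 1.42 ± 0.08, adjusted p = 3.8e-09). The other was Ccl5, an attractant of T cells and monocytes, with 21.4 and 5.7 in wild-type cells and 38.3 and 45.6 in kinase-dead cells (log2 difference 1.31 ± 0.37, adjusted p = 0.0236); its adjusted p was 0.25 without wild-type replicate 2, and under IL-1b its sign was the opposite (-1.56).

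Cytokines and growth factors were also called lower more often than higher. Of 28 tested, 13 were called lower and 3 higher, against 6.91% and 7.29% of all genes, with a median of -0.52. Tnfsf11, the osteoclast factor RANKL, gave 217 and 265 in wild-type cells and 16.7 and 30.5 in kinase-dead cells (log2 difference -3.01 ± 0.21, adjusted p = 3.76e-08). Il11, a cytokine of the IL-6 family that acts in fibrosis, gave 754 and 501 in wild-type cells and 101 and 88.1 in kinase-dead cells, 6.63-fold lower by mean signal (log2 difference -2.60 ± 0.19, adjusted p = 6.88e-08). Csf1, the growth factor of macrophages, gave 819 and 775 in wild-type cells and 256 and 344 in kinase-dead cells (log2 difference -1.40 ± 0.12, adjusted p = 4.66e-07). The kinase-dead arrays were below the wild-type arrays in all 3 genes. Tslp, an epithelial and stromal cytokine, and Lif, another IL-6 family member, were lower, at -1.38 ± 0.16 and -0.80 ± 0.14. Il1rn, the natural antagonist of the IL-1 receptor, gave 1726 and 2142 in wild-type cells and 976 and 970.5 in kinase-dead cells (log2 difference -0.98 ± 0.14, adjusted p = 9.15e-05). Il6 itself was below the filter on all 4 arrays (13.5 and 8.4 in wild-type cells and 3.5 and 13.6 in kinase-dead cells) and was not called (-0.25 ± 0.27, adjusted p = 0.615). Igf1, an insulin-like growth factor, and Il33, a nuclear alarmin of stromal cells, were among the 3 higher genes, at 1.17 ± 0.17 and 1.59 ± 0.29. Il33 gave 16.5 and 12.6 in wild-type cells, under 25.5, and 69.4 and 51.1 in kinase-dead cells.

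Matrix metalloproteinases that IL-1 induces in many fibroblasts were among the most reduced transcripts of kinase-dead cells. Mmp3, stromelysin 1, gave 396 and 416 in wild-type cells and 32.8 and 34.7 in kinase-dead cells, 12.0-fold lower by mean signal (log2 difference -3.31 ± 0.17, adjusted p = 1.76e-09). Mmp13, a collagenase, gave 231 and 285 in wild-type cells and 21.3 and 16 in kinase-dead cells, 13.8-fold lower (log2 difference -3.32 ± 0.19, adjusted p = 3.9e-09). Neither gene showed overlap between genotypes. The protease group was split: of 33 proteases and inhibitors tested, 12 were called higher and 10 lower, with a median of 0.05. Plaur, the receptor of urokinase, was lower, at -1.24 ± 0.17. Mmp2, gelatinase A, was higher, at 0.66 ± 0.12, and Adamts10, a protease of microfibrils, at 1.43 ± 0.21. Serpinb6b, a serine protease inhibitor of the ovalbumin family, gave 26.6 and 44 in wild-type cells and 192 and 190.1 in kinase-dead cells (log2 difference 2.23 ± 0.20, adjusted p = 6.3e-07).

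The promoters of Mmp3, Mmp13 and Cxcl1 are shown as examples from the genes lower in kinase-dead cells. They were picked because their upstream sequence holds AP-1 or NF-kB motifs, so the matches in them are no result about the lower genes. Each line gives the 200 bases before the RefSeq start on the plus strand of GRCm38.p6, 5′ to 3′, with matches to TGANTCA (AP-1) in capitals for Mmp3 and Mmp13 and, for Cxcl1, matches on either strand to an NF-kB pattern of GGG, 3 free bases and TTCC. Mmp3 lies at chr9:7445622-7445821, Mmp13 at chr9:7272314-7272513 and Cxcl1 at chr5:90891045-90891244.
Mmp3: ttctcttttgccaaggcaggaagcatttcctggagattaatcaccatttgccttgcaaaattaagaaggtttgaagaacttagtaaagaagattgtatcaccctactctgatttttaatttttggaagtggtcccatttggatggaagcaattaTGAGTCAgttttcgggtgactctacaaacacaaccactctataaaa
Mmp13: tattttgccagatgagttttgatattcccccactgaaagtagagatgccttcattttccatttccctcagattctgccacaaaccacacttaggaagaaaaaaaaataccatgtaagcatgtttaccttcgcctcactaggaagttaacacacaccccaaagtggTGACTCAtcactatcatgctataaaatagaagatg
Cxcl1: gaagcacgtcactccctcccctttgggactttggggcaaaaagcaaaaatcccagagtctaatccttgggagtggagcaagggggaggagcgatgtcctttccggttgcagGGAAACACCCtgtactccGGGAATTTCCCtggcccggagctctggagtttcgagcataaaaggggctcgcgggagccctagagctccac
The AP-1 match began 46 bases before the start in Mmp3 and 35 in Mmp13, and Cxcl1 held 3 NF-kB matches, 2 of them overlapping, from 89 bases before its start. Over 250 upstream bases on both strands, TGANTCA was found in 5.52% of 9679 tested genes with a promoter in the RefSeq table, in 7.91% of 657 called lower and in 6.08% of 691 called higher. The NF-kB pattern was found in 5.95%, 5.18% and 5.07% of the same sets. Over all 27025 genes of the RefSeq promoter table, tested or not, the shares were 7.82% for TGANTCA and 5.31% for the NF-kB pattern. Differences between these shares were not tested. A match is a run of letters and not a measured binding site.

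The receptor end of the IL-1 pathway differed while most of its signalling genes did not pass the test. Il1r1, the receptor that binds IL-1, gave 391 and 569.8 in wild-type cells and 211 and 204 in kinase-dead cells, 2.32-fold lower by mean signal (log2 difference -1.16 ± 0.15, adjusted p = 2.9e-05). Il1rap, the accessory chain that the receptor needs to signal, gave 159 and 199.5 in wild-type cells and 89.2 and 98 in kinase-dead cells (log2 difference -0.87 ± 0.18, adjusted p = 0.00286). In both genes the kinase-dead arrays lay below the wild-type arrays. Tlr4, the receptor for bacterial lipopolysaccharide, was lower, at -0.80 ± 0.17 (adjusted p = 0.00377), and at -0.49 without wild-type replicate 2, where its adjusted p was 0.0627. Tirap, an adaptor that brings MyD88 to Tlr4, was lower, at -0.53 ± 0.11. The adaptor Myd88 gave 91.5 and 86.7 in wild-type cells and 80.7 and 96.2 in kinase-dead cells and the ubiquitin ligase Traf6 gave 116 and 94.6 in wild-type cells and 108 and 83.2 in kinase-dead cells, and neither was called (-0.01 ± 0.18, adjusted p = 0.973, and -0.13 ± 0.19, adjusted p = 0.731). Irak2, a kinase relative of IRAK4, its inhibitory relative Irak3 and the regulator Tollip were not called either, at -0.16 ± 0.20, -0.27 ± 0.20 and 0.12 ± 0.08. Over the 23 genes of IL-1 and Toll-like receptor signalling tested, 1 was called higher and 5 lower, with a median of -0.27. The higher count was 0 without wild-type replicate 2 or kinase-dead replicate 1, and the lower count was 3 without wild-type replicate 2.

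Of the NF-kB genes 4 were called lower at rest, none of them in every fit that left out 1 array. Nfkbia, the inhibitor that holds NF-kB in the cytoplasm, gave 1768 and 1291 in wild-type cells and 1572 and 1659.8 in kinase-dead cells and was not called (0.10 ± 0.11, adjusted p = 0.642), though without wild-type replicate 1 its difference was 0.32 (adjusted p = 0.0162). Tnfaip3, the ubiquitin-editing inhibitor A20, gave 42.9 and 43.8 in wild-type cells and 46 and 55.4 in kinase-dead cells and was not called (0.19 ± 0.14, adjusted p = 0.443). Of 12 NF-kB subunits and inhibitors tested, 4 were called lower and 0 higher in limma (6 and 0 at an unadjusted p under 0.05), against 6.91% and 7.29% of all genes, with a median of -0.28. The 4 were the subunit gene Rela (-0.60 ± 0.16, adjusted p = 0.0175), the inhibitor family members Bcl3 (-0.97 ± 0.30, adjusted p = 0.0403) and Nfkbiz (-0.32 ± 0.09, adjusted p = 0.0265), and the deubiquitinase gene Cyld (-0.38 ± 0.11, adjusted p = 0.0329). That lower count was 2 with each array centred on its median, 2 without wild-type replicate 2, 1 without kinase-dead replicate 1 and 0 without kinase-dead replicate 2, and 2 genes were called higher without wild-type replicate 1. Interferon-stimulated genes numbered 33 tested, 3 called higher and 2 lower, with a median of 0.21. That is 15.2% of the list, close to the 14.2% called over all genes.

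Immediate early genes, which respond within minutes to serum, growth factors and cytokines, were often lower in unstimulated kinase-dead cells. Of 39 tested, 18 were called lower and 2 higher, against 6.91% and 7.29% of all genes, with a median of -0.54, and 33 had a difference below 0. The 18 became 8 without kinase-dead replicate 1, and the 2 became 1 without either kinase-dead array. Sgk1, a serum-induced kinase, gave 2660.4 and 3117 in wild-type cells and 958 and 1179.5 in kinase-dead cells (log2 difference -1.43 ± 0.10, adjusted p = 2.71e-08). Ier3, an NF-kB and serum target, gave 885 and 848 in wild-type cells and 331 and 414 in kinase-dead cells (log2 difference -1.21 ± 0.10, adjusted p = 3.46e-07), and Egr3, a zinc-finger factor, gave 604 and 650.1 in wild-type cells and 261 and 311 in kinase-dead cells (log2 difference -1.12 ± 0.13, adjusted p = 1.66e-05). The 2 genotypes did not overlap in these genes. Jun, a subunit of AP-1, the orphan receptor gene Nr4a2 and the RNA-decay gene Zfp36l2 were lower, at -0.70 ± 0.09, -0.97 ± 0.16 and -0.74 ± 0.08. Btg1, an antiproliferative gene, was higher, with 3403 and 3871 in wild-type cells and 5206 and 5224 in kinase-dead cells (log2 difference 0.52 ± 0.09, adjusted p = 0.000477).

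**Figure D2:**
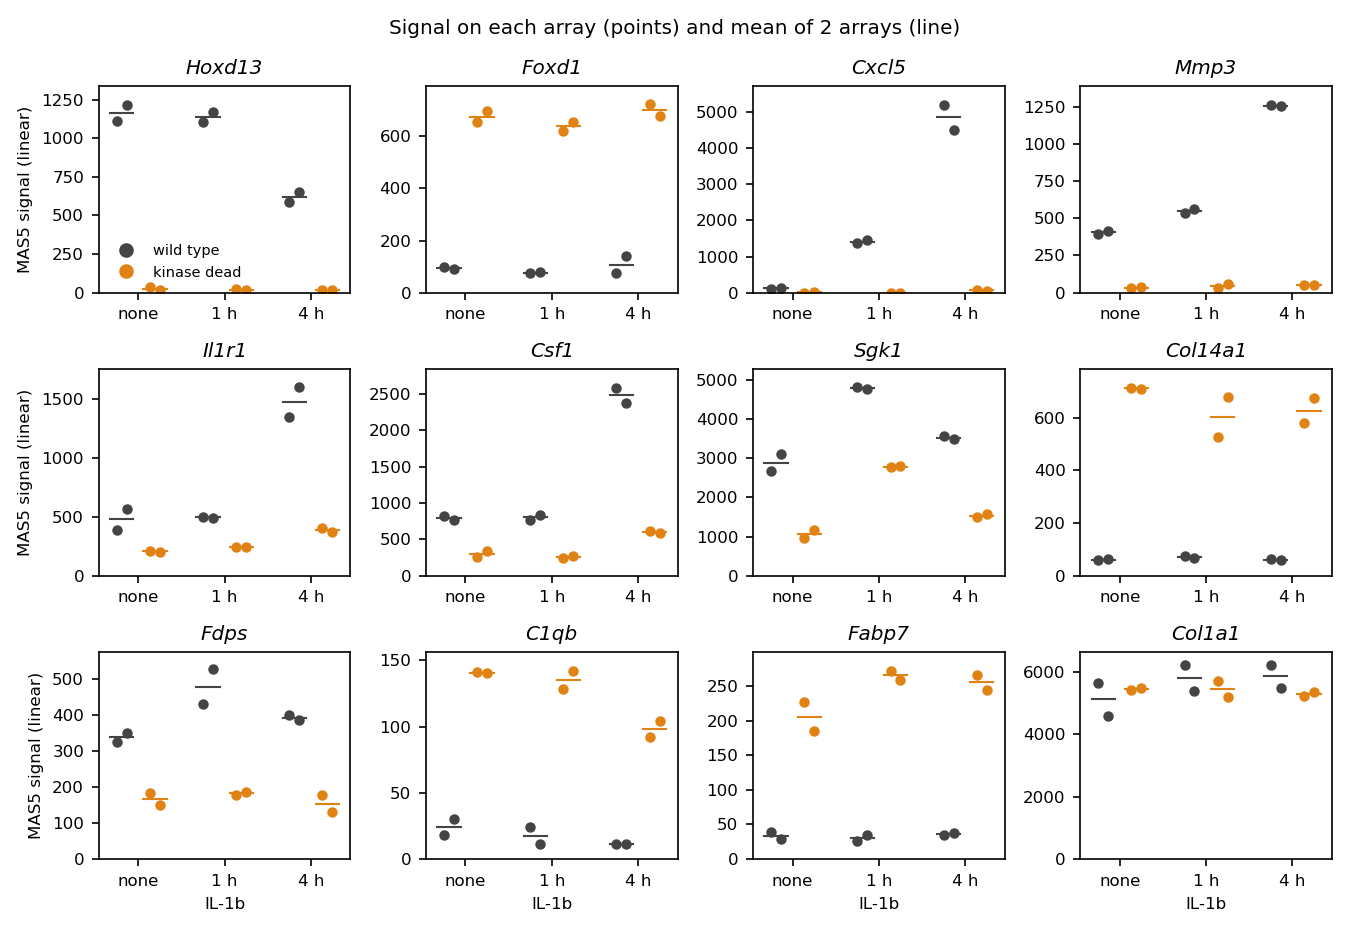
MAS5 signal (y axis, linear, from 0) on each of the 12 arrays for 12 genes, by stimulation (x axis: none, IL-1b 1 h, IL-1b 4 h) and genotype, with the mean of 2 arrays as a line. Hoxd13, Foxd1, Col14a1, C1qb and Fabp7 keep the genotypes apart with and without IL-1b, Cxcl5 and Mmp3 spread further apart on this linear scale with IL-1b, and Col1a1 stays close to equal.

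Matrix genes differed in many members and in both directions. Of 62 matrix glycoproteins and proteoglycans tested, 15 were called higher and 15 lower, against 7.29% and 6.91% of all genes, with a median of -0.06. Thbs4, a thrombospondin of tendon and muscle attachment, gave 329.7 and 269 in wild-type cells and 14 and 15.4 in kinase-dead cells, 20.4-fold lower by mean signal (log2 difference -3.75 ± 0.22, adjusted p = 6.56e-09). Lum, the collagen-binding proteoglycan lumican, gave 277 and 448 in wild-type cells and 70.8 and 58 in kinase-dead cells (log2 difference -2.32 ± 0.19, adjusted p = 2.61e-07). Hyaluronan genes were part of the lower set. Has2, the main hyaluronan synthase of embryos, gave 553 and 679.9 in wild-type cells and 106 and 125 in kinase-dead cells, 5.34-fold lower (log2 difference -2.33 ± 0.15, adjusted p = 1.14e-08), and Hapln1, which links hyaluronan to proteoglycans, gave 138 and 176 in wild-type cells and 21.7 and 2.8 in kinase-dead cells (log2 difference -3.19 ± 0.36, adjusted p = 8.76e-06). Tnc, tenascin C, gave 2936 and 2541 in wild-type cells and 1232 and 1357 in kinase-dead cells (log2 difference -1.07 ± 0.09, adjusted p = 2.43e-07). Smoc1, a calcium-binding matrix protein, was higher, at 1.77 ± 0.14. The binding proteins of insulin-like growth factors diverged, with Igfbp4 lower (-2.51 ± 0.15) and Igfbp2 higher (1.32 ± 0.12).

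Of 27 collagens tested, 5 were called higher and 5 lower (3 lower without kinase-dead replicate 1), with a median of 0.05. Col14a1, a collagen that coats fibrils in tendon and skin, gave 59.8 and 64.2 in wild-type cells and 714 and 708 in kinase-dead cells and was 11.5-fold higher by mean signal (log2 difference 3.36 ± 0.15, adjusted p = 2.03e-10), the largest rise of any gene tested. A second Col14a1 probe set was called higher as well. The basement membrane chains Col4a1 and Col4a2 were higher, with 1479 and 1209.7 in wild-type cells and 2563 and 2737 in kinase-dead cells for Col4a1 and differences of 0.98 ± 0.10 and 0.73 ± 0.09. The microfibril chains Col6a1 and Col6a3 were lower, with 1912 and 1819.7 in wild-type cells and 1028 and 946 in kinase-dead cells for Col6a1 and differences of -0.91 ± 0.11 and -0.72 ± 0.10. Fibrillar collagens Col1a1, Col1a2 and Col3a1 were not called, as given above.

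Several of the widest gaps lay outside the lists. Angptl7, a secreted angiopoietin-like protein, gave 911 and 848 in wild-type cells and 51.6 and 43.6 in kinase-dead cells, 18.5-fold lower by mean signal (log2 difference -4.00 ± 0.14, adjusted p = 2.52e-11). Sbspon, a secreted matrix protein, gave 434 and 372 in wild-type cells and 37.4 and 29.6 in kinase-dead cells (log2 difference -3.31 ± 0.23, adjusted p = 3.21e-08). Galnt13 and Spock3, a glycosyltransferase and a testican, had differences of -2.92 ± 0.33 and -2.84 ± 0.28. Ahrr, the repressor of the aryl hydrocarbon receptor, gave 107 and 91.9 in wild-type cells and 5.9 and 8.1 in kinase-dead cells (log2 difference -2.84 ± 0.32, adjusted p = 7.5e-06). On the other side, Cadm1, a cell adhesion molecule, gave 44.3 and 72.2 in wild-type cells and 514 and 463 in kinase-dead cells, 8.39-fold higher (log2 difference 2.94 ± 0.21, adjusted p = 6.03e-08). Pappa2, a protease of insulin-like growth factor binding proteins, and Lrrn1, a leucine-rich neuronal membrane protein, were higher, at 2.99 ± 0.26 and 3.02 ± 0.28 from wild-type signals under 25.5. Ano1, a calcium-activated chloride channel, gave 79.2 and 106 in wild-type cells and 551 and 549.9 in kinase-dead cells (log2 difference 2.49 ± 0.15, adjusted p = 7.49e-09). Gja3, a gap junction protein, gave 150.5 and 142 in wild-type cells and 826 and 785 in kinase-dead cells (log2 difference 2.40 ± 0.17, adjusted p = 3.21e-08). None of these genes overlapped between genotypes, but the rule for the largest changes required this, and 52.1% of all genes tested met it.

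Most transcripts of cholesterol synthesis were lower. All 18 tested had a difference below 0; 13 were called lower and 0 higher in limma (14 and 0 at an unadjusted p under 0.05), with a median of -0.68. Fdps, which makes farnesyl diphosphate, gave 327 and 351 in wild-type cells and 183 and 151 in kinase-dead cells (log2 difference -0.99 ± 0.15, adjusted p = 0.000246). Hsd17b7, an enzyme of the late pathway, gave 716 and 648 in wild-type cells and 368 and 347 in kinase-dead cells (log2 difference -0.91 ± 0.12, adjusted p = 4.77e-05). Cyp51, the lanosterol demethylase, gave 1444 and 1324 in wild-type cells and 752 and 816 in kinase-dead cells (log2 difference -0.81 ± 0.09, adjusted p = 8.76e-06). In these 3 genes the kinase-dead arrays lay below the wild-type arrays. Idi1, an isomerase of the mevalonate pathway, and Insig1, the sterol-sensing regulator of the pathway, were lower, at -0.77 ± 0.13 and -0.40 ± 0.07. In the 8 stimulated arrays 15 of the 18 were called lower and 0 higher.

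Genes of amino acid synthesis and of the stress factor ATF4 also leaned lower, less firmly. Of 40 tested, 18 were called lower and 0 higher in limma (26 and 0 at an unadjusted p under 0.05), with a median of -0.38, but 2 were called lower without kinase-dead replicate 1 and 11 without wild-type replicate 1, where 1 was higher. Cth, an enzyme of cysteine synthesis, gave 234 and 302 in wild-type cells and 106 and 102 in kinase-dead cells (log2 difference -1.29 ± 0.17, adjusted p = 3.76e-05). The largest difference on that list was in Cdsn (-1.58 ± 0.27, adjusted p = 0.000613), which encodes corneodesmosin, an adhesion protein of skin. Its place on the list may be an error, and it was kept in the counts. Of 29 genes of the unfolded protein response, 2 were called lower and 0 higher in limma (10 and 1 at an unadjusted p under 0.05), with a median of -0.19. That is 6.9% of the list, against 14.2% of all genes. The lower count was 5 without wild-type replicate 2 and 1 without either kinase-dead array, and 1 was higher without wild-type replicate 1. Of 80 cell cycle genes, 2 were called higher and 7 lower (11.2%, against 14.2% of all genes), with a median of -0.21. Leaving out 1 of the 4 unstimulated arrays brought the lower count to between 0 and 4, and the higher count to 0 or 1 for 3 of them.

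**Figure D3:**
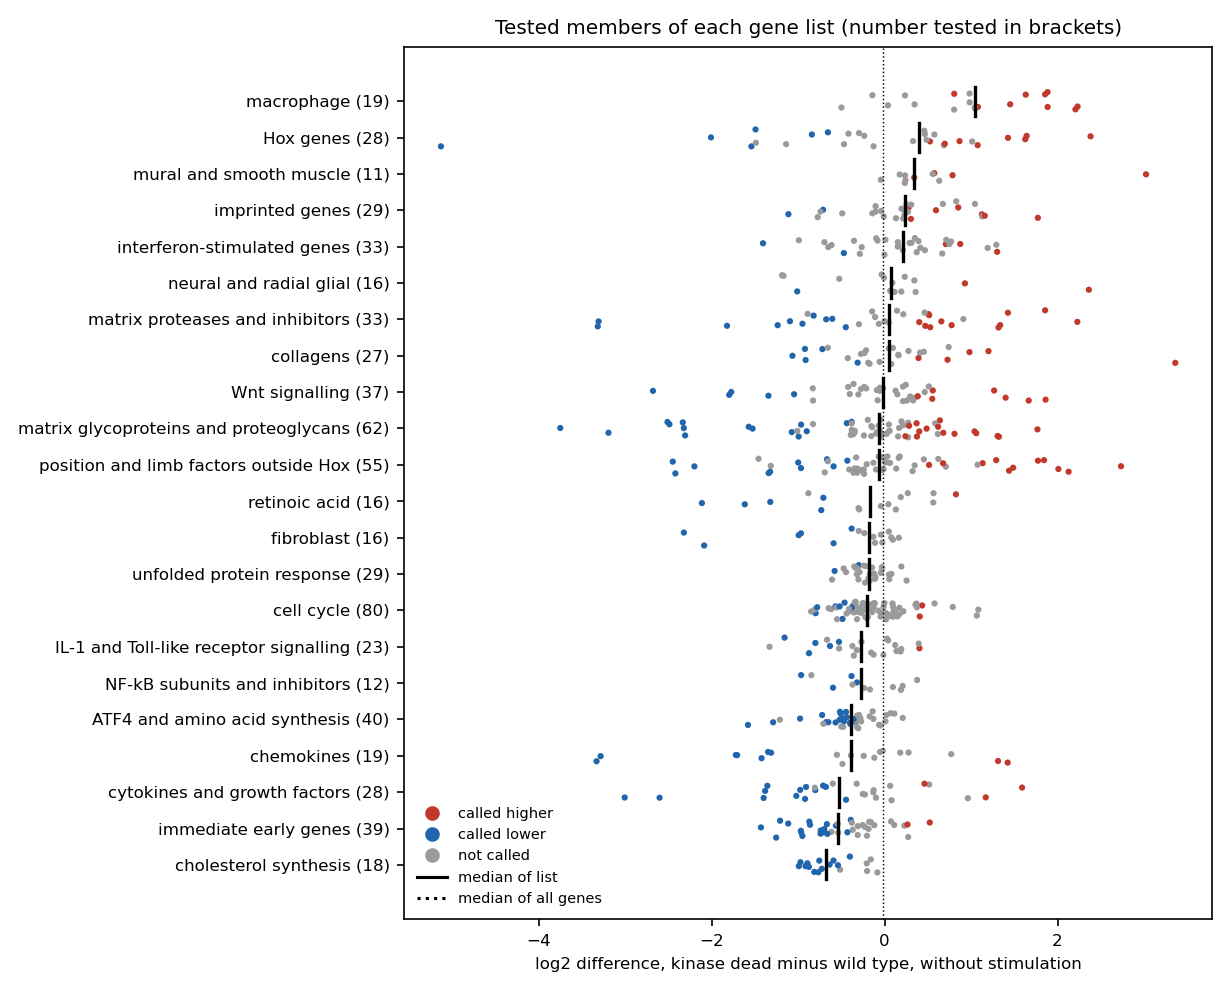
Log2 difference without stimulation (x axis, kinase dead minus wild type) of each tested member of 22 gene lists, ordered by list median (black bars), with called genes in colour and the median of all genes as a dotted line. Cholesterol synthesis, with a median of -0.68, has no member above 0, and the macrophage list has the highest median at 1.04.

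Markers of macrophages were part of the genotype difference. Of 19 macrophage markers tested, 9 were called higher and 0 lower in limma in kinase-dead cells (11 and 0 at an unadjusted p under 0.05), with a median of 1.04, and all 9 were called higher again in the stimulated arrays. C1qb, a complement subunit made by macrophages, gave 18.2 and 30.3 in wild-type cells and 141 and 140.4 in kinase-dead cells (log2 difference 2.23 ± 0.27, adjusted p = 1.98e-05). Laptm5, a lysosomal protein of blood cells, gave 27.4 and 23.7 in wild-type cells and 123 and 109 in kinase-dead cells (log2 difference 1.89 ± 0.25, adjusted p = 4.23e-05), and Ptprc, the leukocyte antigen CD45, gave 9.2 and 2.6 in wild-type cells and 44.1 and 39.7 in kinase-dead cells (log2 difference 1.88 ± 0.39, adjusted p = 0.00284). Both kinase-dead arrays were above both wild-type arrays in each. Mpeg1, a pore-forming protein of macrophages, gave 5 and 1.5 in wild-type cells and 33.6 and 55.3 in kinase-dead cells (log2 difference 2.21 ± 0.42). Ptprc, Mpeg1 and Adgre1, an antigen described below, lay under 25.5 on every wild-type array. These members passed the filter on dim probe sets only through kinase-dead arrays, where they were higher, and the counts above include them. Ctss, a lysosomal protease that is also on the protease list, was higher, at 1.86 ± 0.19. The lysozyme genes Lyz1 and Lyz2, near-identical copies whose probes may not be separate, were higher, at 1.63 ± 0.15 and 1.45 ± 0.14.

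Defining macrophage genes were dim. Csf1r, the receptor for the Csf1 growth factor, gave 28.1 and 31.2 in wild-type cells and 30.9 and 50.8 in kinase-dead cells and was not called (0.35 ± 0.32, adjusted p = 0.545), whereas the Csf1r probe set with the widest spread had a difference of 1.59 (adjusted p = 0.0116). Adgre1, the antigen F4/80, gave 10.7 and 8.7 in wild-type cells and 35.5 and 22.7 in kinase-dead cells and Cd68, a lysosomal glycoprotein, gave 23.4 and 13.7 in wild-type cells and 25.5 and 20.2 in kinase-dead cells, and neither was called. Fcgr1, Itgam and C1qc lay under 25.5 on all 4 arrays. The summed signal of the 22 macrophage markers on the array was 852 and 869 in wild-type cells and 2107 and 2052 in kinase-dead cells, 2.42-fold higher. On the stimulated arrays it was 879 to 968 in wild-type cells and 2035 to 2373 in kinase-dead cells. The part of these cells in the other differences was not tested, and in cultures measured in bulk more cells of a type and more RNA per cell cannot be told apart.

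Some mural and smooth muscle markers were higher as well, with 4 of 11 tested called higher, 0 lower in limma (7 and 0 at an unadjusted p under 0.05) and a median of 0.34, or 2 of them when wild-type replicate 2 or kinase-dead replicate 2 was left out. Rgs5, a pericyte regulator of G-protein signalling, gave 149 and 159 in wild-type cells and 1279 and 1341 in kinase-dead cells, 8.50-fold higher by mean signal (log2 difference 3.02 ± 0.11, adjusted p = 2.52e-11). Notch3, the Notch receptor of pericytes and smooth muscle, gave 318 and 279 in wild-type cells and 539 and 499.8 in kinase-dead cells (log2 difference 0.79 ± 0.11, adjusted p = 0.000102). Their kinase-dead arrays exceeded the wild-type arrays, and the summed signal of the 12 genes was 11160 and 9994 in wild-type cells and 13717 and 13669 in kinase-dead cells. Among 16 neural and radial glial markers, 2 were called higher and 1 lower (18.8%, against 14.2% of all genes), with a median of 0.08. Fabp7, a fatty acid binding protein of radial glia, gave 38.5 and 28.8 in wild-type cells and 227 and 185 in kinase-dead cells (log2 difference 2.36 ± 0.19, adjusted p = 1.68e-07), and Sox2, a neural stem cell factor, gave 52.1 and 45.1 in wild-type cells and 96.8 and 102 in kinase-dead cells (log2 difference 0.93 ± 0.21, adjusted p = 0.00559). Slc1a3, a glial glutamate transporter, went the other way, with 149 and 141 in wild-type cells and 66.3 and 69.3 in kinase-dead cells (log2 difference -1.01 ± 0.19, adjusted p = 0.00136). Of 22 neural genes on the array, 8 lay under 25.5 on all 4 arrays, among them Pax6, Sox10, Olig1 and Olig2. The part of either cell type in the other differences was not tested. In limma 0 of the 10 skeletal muscle, 6 endothelial and 2 melanocyte markers tested were called, and 0, 2 and 0 of them passed an unadjusted p of 0.05. Of 12 epithelial and keratinocyte markers 2 were called higher and 1 lower, and of 4 adipocyte and 4 mesothelial markers 1 each way. Of 11 cartilage and bone markers, 0 were called higher and 1 lower in limma (1 and 2 at an unadjusted p under 0.05). These short lists stand beside 14.2% of all genes called.

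Imprinted genes, expressed from 1 parental copy, gave 7 called higher and 2 lower of 29 tested, with a median of 0.23; the higher count fell to 3 or 4 when wild-type replicate 2 or either kinase-dead array was left out. Peg3, a paternally expressed zinc-finger gene, gave 1166 and 953 in wild-type cells and 3590.2 and 3648 in kinase-dead cells, 3.42-fold higher by mean signal (log2 difference 1.77 ± 0.09, adjusted p = 1.76e-09), and 2 other Peg3 probe sets were called higher. Mest, also paternally expressed, gave 551 and 706 in wild-type cells and 321 and 251 in kinase-dead cells (log2 difference -1.11 ± 0.15, adjusted p = 6.47e-05), so members with the same parental origin differed in opposite directions. Slc38a4, an amino acid transporter on chromosome 15 and another imprinted gene, gave 577 and 711 in wild-type cells and 1545 and 1342 in kinase-dead cells (log2 difference 1.16 ± 0.11, adjusted p = 1.21e-06).

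Slc38a4 is also near Irak4, and a targeted allele can carry flanking DNA of the strain in which it was made. Of the 30 tested genes on each side of Irak4 in the reference order, 5 of 60 (8.33%) were called, 4 higher and 1 lower, against 14.2% of all genes, and 2 of the 10 nearest, 5 on each side, were called. Of the 60, 10 were called without wild-type replicate 1, where 1895 of all genes were, 10 when only genes with a signal of at least 100 on 2 arrays were tested and 3 with the unstimulated arrays alone. Prickle1, a planar cell polarity gene in that stretch, was higher, at 0.72 ± 0.10. Over the whole of chromosome 15, 12.8% of 493 genes were called. The share per autosome ran from 10.6% on chromosome 17 to 18.5% on chromosome 1.

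The 8 stimulated arrays gave a second comparison of the genotypes, whose differences come from other samples. Both comparisons take their variance from the same fit to 12 arrays, so their calls are not independent. Averaged over 1 h and 4 h of IL-1b, 3171 genes (26.4%) were called, 1866 (15.6%) higher and 1305 (10.9%) lower, and 1420 higher and 1610 lower when each array was centred on its median. Of the 1704 genes called without stimulation, 1614 (94.7%) had the same sign under IL-1b. In the same direction 1271 (10.6% of all genes) were called, which is 74.6% of the unstimulated calls and 40.1% of the calls under IL-1b, and 12 were called in the opposite direction. Without kinase-dead replicate 1 the unstimulated calls numbered 1006, of which 963 had the same sign and 811 were called again. Hoxd13 (-4.94), Angptl7 (-3.78), Thbs4 (-3.69), Rgs5 (3.12) and Col14a1 (3.07) had log2 differences under IL-1b close to those at rest. Actb, the gene of beta-actin, was not called in either state, at -0.01 and -0.11.

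A direct test of the change, the difference under IL-1b minus that without stimulation, called 122 genes (1.02%), 33 (0.275%) upward and 89 (0.742%) downward, or 19 upward and 137 downward with each array centred on its median. This contrast shares the 4 unstimulated arrays with the first one. The count was 307 without wild-type replicate 1 and 80 without kinase-dead replicate 2. Of the 122 genes, 60 were also called at rest; 29 of these differed further in the same direction under IL-1b, 9 differed less and 22 had the opposite sign. Chemokine and protease genes were among those that went further. Cxcl5 went from -3.33 to -6.60 (change -3.27, adjusted p = 9.07e-06), Cxcl1 from -1.31 to -4.81 (change -3.49, adjusted p = 4.43e-06) and Mmp13 from -3.32 to -4.73 (change -1.42, adjusted p = 0.00364). Mmp3, with -3.31 and -3.90, did not pass this test (adjusted p = 0.267), nor did Il1r1, with -1.16 and -1.44 (adjusted p = 0.562). Cxcl2, Il6 and Tnfaip3 were not called at rest and had differences of -6.28, -4.05 and -3.13 under IL-1b.

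**Figure D4:**
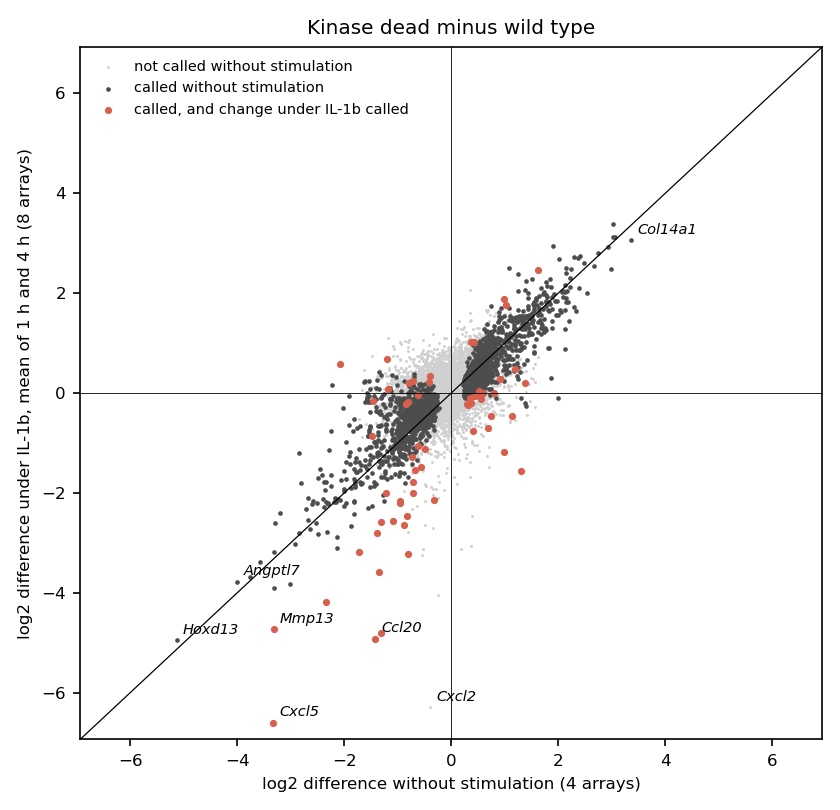
Genotype difference of each of the 11998 genes without stimulation (x axis, log2, 4 arrays) against that under IL-1b (y axis, log2, mean of 1 h and 4 h, 8 other arrays), with the line of equal values. Of the 1704 genes called without stimulation 1614 share the sign, and the 60 genes in red also passed the test of the change.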

How the data were processed

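RNA was extracted and amplified, and arrays were scaled to MAS5 signal intensity by the authors, per the labels' protocols and the submitters' processing notes. The deposited intensity values (45101 probe sets, 12 arrays) had a mean of 150 with 2% trimmed from each end, and were not renormalized; whether detection calls were made is not given in the sources used here. From them, 64 control probe sets, 932 with several gene symbols and 9160 with no gene listed were left out, and the other 34945 were named from the platform annotation, 34741 of them matched to the GRCm38.p6 RefSeq table. Of these, 33588 lay on autosomes. Genes were kept where 2 or more arrays reached 25.5, the overall median signal, and were read at their probe set of highest mean. limma 3.58.1 (R 4.3.3) fitted 6 group means to log2(signal + 8) with a trended prior (6 residual degrees of freedom); p-values were adjusted by Benjamini-Hochberg. Simulated data for this comparison had 200 of 11998 genes changed, a smaller share than the 14.2% called in the real data. There the fit recovered 55% of genes changed by 1 and 88% of those changed by 2 on the log2 scale. Of the 159 calls, 16 were of unchanged genes, and 0 genes were called with no change simulated. Recovery at the share of the real data was not tested. Precision is limited by the small number of arrays.

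The genes and the 40 lists, 28 of programmes and 12 of cell markers, were chosen with earlier results of these data known. A rule gave 154 genes to name (the 14 largest changes each way with separated arrays, up to 4 called members of each list, the 10 largest that recurred under IL-1b, the 6 largest changes between states, and fixed pathway and control genes); 94 of the 149 genes followed through every alternative came from it, and the other 55 were list members or neighbours chosen after their values were seen. Alternatives covered the pseudocount, filter, normalization, variance model, array weights, probe set choice, inclusion of all chromosomes, groups in the fit, replicate block and each array left out.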

Additional observations from a re-analysis of the deposited data

Results flagged for a closer look

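In 18 of the genes described, the genotype difference under IL-1b differed from that without stimulation by a direct limma test of the change. The change was -5.89 for Cxcl2 (adjusted p = 1.01e-11), -3.80 for Il6 (5.18e-06), -3.49 for Ccl20 (2.37e-06), -3.49 for Cxcl1 (4.43e-06), -3.32 for Tnfaip3 (7.34e-09) and -3.27 for Cxcl5 (9.07e-06). It was -2.42 for Lif (5.71e-07), -2.24 for Ccl2 (7.09e-06), -1.46 for Ccl7 (0.000541), -1.42 for Mmp13 (0.00364), -1.41 for Tslp (0.000627), -1.81 for Nfkbiz (5.99e-08) and -1.19 for Nfkbia (9.25e-05). In all of these, kinase-dead cells stood lower relative to wild-type cells under IL-1b than at rest. Ptx3, a soluble pattern-recognition protein of stromal cells, changed by -0.80 (0.00321) and Btg1 by -0.48 (0.0356), from 0.52 at rest to 0.04 under IL-1b. Ccl5 changed by -2.87 (0.00278), from 1.31 to -1.56. Hoxa3 and Hoxd8 moved the other way: Hoxa3 changed by 0.84 (0.0135), from 1.63 to 2.46, and Hoxd8 by 0.62 (0.0171), from -0.84 to -0.23. The other patterning genes described did not pass this test.

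Y-linked transcripts, which the main comparisons left out, were bright on the 6 kinase-dead arrays and near 0 on the 6 wild-type arrays. At the brightest probe set of each gene the lowest kinase-dead signals were 1452 for Eif2s3y, 577.5 for Kdm5d and 119 for Uty, and the highest wild-type signals at the same probe sets were 10.6, 7.3 and 8.9. Other probe sets of these genes were dimmer on the kinase-dead arrays, down to 5.1, 2 and 18.4.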

How the results depend on the processing

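Of the 3717 gene values obtained under 26 alternatives, 3672 kept their direction and their side of the threshold, 42 lost and 3 gained a call, and 0 reversed. Of 1800 counts of list members, 183 moved by more than 1.5 times. The genes called without stimulation numbered 1025 with only the unstimulated groups in the fit and 1006 to 1895 with 1 array left out. Of them 963 to 1699 had the same sign under IL-1b and 811 to 1287 were called in the same direction there, over the fits that left out 1 array. The count under IL-1b itself was 2523 to 3498. The test of the change called 35 genes without a trend in the variance prior, 76 at the probe set with the widest interquartile range, and 80 to 307 with 1 array left out. Near Irak4, 10 genes were called with a signal of at least 100 required, 3 without the trend, 3 with only the unstimulated groups and 4 to 10 with 1 array left out. Replicate numbers were not taken as pairs: replicate deviations of the 2 unstimulated groups correlated at -0.0539, and those of all pairs of groups at -0.0539 to 0.0991. With the replicate number as a block, 1669 genes were called without stimulation, 3137 under IL-1b and 128 in the test of the change. The median of the MHC class I list was -0.03, and 0.0025 under quantile normalization and 0.0088 with each array centred on its median; that of the cartilage and bone list was -0.14, 0.02 and -0.10, of the Wnt list -0.02, 0.09 and 0.02, of the numbered Zfp list -0.02, 0.03 and 0.02, and of the collagens 0.05, -0.03 and 0.09. With 2 arrays a group, signals under 25.5 give only rough differences.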

Other observations

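Genes of fatty acid synthesis and lipid storage were split. Of 27 tested, 8 were called lower and 3 higher, with a median of -0.15, and the lower count was 5 without wild-type replicate 1 and 4 without kinase-dead replicate 1. Fabp4, the fatty acid binding protein of fat cells and macrophages, gave 334 and 405 in wild-type cells and 78.2 and 73 in kinase-dead cells (log2 difference -2.17 ± 0.19, adjusted p = 3.62e-07), and Fads2, a fatty acid desaturase, gave 1414 and 1266 in wild-type cells and 703 and 673 in kinase-dead cells (log2 difference -0.95 ± 0.13, adjusted p = 6.29e-05). Fabp3, the binding protein of muscle, was higher, with 136 and 133 in wild-type cells and 383 and 384 in kinase-dead cells (log2 difference 1.46 ± 0.12, adjusted p = 3.2e-07), as was the lipoprotein lipase gene Lpl, with 151 and 166 in wild-type cells and 439.7 and 421 in kinase-dead cells (log2 difference 1.40 ± 0.17, adjusted p = 1.98e-05). The genotypes did not overlap in any of these 4 genes.

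Of 37 genes of TGF-beta and BMP signalling, 6 were called higher and 6 lower, with a median of 0.01 and 3 higher without kinase-dead replicate 2. Bmp4, a ligand of early mesoderm and limb, gave 207 and 209 in wild-type cells and 584 and 662 in kinase-dead cells (log2 difference 1.54 ± 0.12, adjusted p = 9.1e-08). Bmpr1b, a BMP receptor of limb cartilage, gave 312 and 403 in wild-type cells and 139.7 and 132 in kinase-dead cells (log2 difference -1.34 ± 0.14, adjusted p = 5.43e-06), and Inhba, the activin A subunit, gave 917 and 656 in wild-type cells and 404 and 470.1 in kinase-dead cells (log2 difference -0.82 ± 0.14, adjusted p = 0.000657). Inhbb, the subunit of activin B, was lower too (-1.03 ± 0.17, adjusted p = 0.000488). Bmp4 was higher and the other 3 lower, with no overlap between arrays.

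Of 39 glycolysis and hypoxia genes, 6 were called higher and 6 lower, with a median of -0.20, and the higher count was 2 without wild-type replicate 2 or kinase-dead replicate 1 and 3 without kinase-dead replicate 2. The glucose transporter genes diverged, with Slc2a3 at 92.2 and 83.8 in wild-type cells and 292 and 306 in kinase-dead cells (log2 difference 1.68 ± 0.17, adjusted p = 2.46e-06) and Slc2a1 at 3389.9 and 2995 in wild-type cells and 1932 and 2319 in kinase-dead cells (log2 difference -0.59 ± 0.10, adjusted p = 0.000359). Vegfa, the vascular growth factor, was lower, at -0.91 ± 0.13. Of 46 genes of the Nrf2 response and glutathione, 8 were called higher and 9 lower, with a median of 0.03, or 5 and 4 without kinase-dead replicate 1. Gpx3, a secreted glutathione peroxidase, gave 195 and 167 in wild-type cells and 548 and 617 in kinase-dead cells (log2 difference 1.64 ± 0.13, adjusted p = 9.61e-08), and Nqo1, a quinone reductase and common Nrf2 target, gave 380.2 and 389 in wild-type cells and 224 and 243 in kinase-dead cells (log2 difference -0.70 ± 0.12, adjusted p = 0.000704).

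The remaining programme lists are given beside 7.29% called higher and 6.91% lower over all genes. Differences ran from -1.18 to 1.28 on the contractile list, -0.73 to 1.13 on the p53 list and -1.21 to 0.94 on the complement list. Of 10 histone genes tested, 3 were called higher and 0 lower in limma (3 and 0 at an unadjusted p under 0.05). Of 30 contractile, SRF and YAP target genes, 6 were called higher and 6 lower (3 higher without wild-type or kinase-dead replicate 2, and 2 lower without kinase-dead replicate 1), with Tagln2, an actin-binding protein, at -0.91 ± 0.18. Of 32 p53 targets and cell cycle inhibitors, 7 were called higher and 3 lower, or 3 and 1 without kinase-dead replicate 1, with the p53 effector gene Perp at 0.89 ± 0.14. Of 22 complement and acute phase genes, 1 was called higher and 5 lower, with Ptx3 at -1.21 ± 0.10; the higher count was 0 without wild-type replicate 1 or kinase-dead replicate 2, and the lower count 2 without wild-type replicate 2 or kinase-dead replicate 1. Of 17 genes of MHC class I presentation, 1 was called each way (11.8%, against 14.2% of all genes). Of 263 numbered Zfp genes, which encode zinc-finger proteins, 12 were called higher and 8 lower, against 14.2% of all genes called, and the higher count was 4 to 6 without wild-type replicate 1 or either kinase-dead array.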
